A study of Homo sapiens with 12 samples.

Results

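Complement components made by fibroblasts were followed here as a fixed set of 9 genes, C1R, C1S, C3, C7, CFB, CFD, CFI, SERPING1 and CD55, taken by symbol from the gene count table of 60671 genes. All 9 were found. 6 of them (C1R, C1S, C3, CFI, SERPING1 and CD55) were above 1 CPM (the share of a library's gene counts, per 1000000 counts) in at least 3 libraries and were tested among 13236 genes, and C7, CFB and CFD did not. The cells were BJ-5ta, a human skin fibroblast line that was made immortal with telomerase. Sequencing was of poly(A) RNA, from wild-type (WT) cells and from ΔLEO1 cells, in which CRISPR guides had been directed at exons 1 and 2 of LEO1, a subunit of the PAF1 transcription elongation complex. Both were harvested in 10% serum (groups WT_10 and Leo1_10) and after 10 days in 0.1% serum, in which the cells become quiescent (groups WT_01 and Leo1_01). Each of the 4 groups had 3 libraries. The ΔLEO1 cells were 1 clone, so that the loss of LEO1 and other properties of that clone cannot be told apart.

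Complement is a cascade of plasma proteins that coat and lyse microbes and mark damaged cells for removal. In the classical pathway C1q binds a target and activates the serine proteases C1r and C1s, which lead to the cleavage of C3, the protein on which all routes of activation converge. In the alternative pathway factor D cleaves factor B, a fragment of which forms the C3-cleaving enzyme with C3b. C7 takes part in the membrane attack complex at the end of the cascade. The host is protected by the C1 inhibitor (SERPING1), which blocks C1r and C1s, by factor I (CFI), which degrades C3b, and by CD55 on the cell surface, which dissociates the C3-cleaving enzymes. Most of these proteins in plasma come from the liver, but fibroblasts also secrete C1r, C1s, C3 and the C1 inhibitor.

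Gene counts per library ran from 26240632 to 45315560, and the synthetic ERCC transcripts added to each sample took 0.625% to 3.24% of the counts. LEO1 itself had 682 to 1001 counts in the 6 WT libraries and 23 to 55 in the 6 ΔLEO1 libraries. All 12 markers of fibroblasts were tested and their summed level was 70101 to 100751 CPM, whereas the 10 hepatocyte markers summed to at most 0.523 CPM and ALB had no more than 3 counts in a library. Among the macrophage markers AIF1 and TYROBP had no counts, and the list summed to 54.6 to 104 CPM in WT and 4.57 to 11.1 CPM in ΔLEO1 cells. That sum was mostly MSR1, a scavenger receptor with 1535 to 3362 counts in WT and 3 to 23 in ΔLEO1 libraries, whereas PTPRC had 8 to 21 in WT and 61 to 269 in ΔLEO1 libraries and FCER1G had 1 to 6 and 10 to 31. Endothelial markers summed to at most 5.73 CPM, and epithelial markers, of which KRT8 and KRT18 were tested, to 167 to 463 CPM in WT and 510.1 to 1141 CPM in ΔLEO1 cells. KRT18 had more counts in ΔLEO1 libraries (16215 to 49433 against 2637 to 15634) and KRT8 fewer (887 to 1380 against 1950 to 2625). Of the adipocyte markers, FABP4 (79 to 430 counts against 0 to 7) and PLIN1 (18 to 27 against 4 to 9) had more reads in ΔLEO1 than in WT libraries, PPARG had fewer (7 to 21 against 150 to 231), and ADIPOQ and LPL had none. The part of these markers in the results was not tested. In each group the library with the highest number (WT_10_3, Leo1_10_6, WT_01_9 and Leo1_01_12) stood apart. A chi-square statistic per gene was 66.2 to 144 between it and the others of its group and 3.04 to 12.1 between the remaining pair, so results are also given for those pairs alone. The labels do not say whether libraries of a group came from separate cultures. The p-values therefore rest on a spread between libraries that may be technical.

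The members were expressed at levels that spanned a wide range. Levels of different genes are compared as RPKM, which is CPM per kilobase of the longest annotated transcript, over 3 libraries. In WT_10 C1R was highest, with 153 ± 23.9 RPKM (SD, n = 3), followed by C1S with 101 ± 22.4, SERPING1 with 51.3 ± 8.20, CD55 with 22.6 ± 2.12 and C3 with 10.9 ± 6.38 RPKM. The ranges of these neighbours in the order did not overlap in WT_10. CFI had 0.817 ± 0.240 RPKM, and CFD, CFB and C7 had means of 0.258, 0.0964 and 0.0143 RPKM. Thus C1R and C1S were abundant transcripts, ranking 208 to 320 and 400 to 703 among the 13236 tested genes by CPM in WT_10, while the label of a made component rests on few reads for CFB and CFD and is not borne out for C7. The order was the same in WT_01 for the leading 5 genes, with C1R at 389 ± 62.7 RPKM. In Leo1_10 CD55 (22.5 to 23.5 RPKM) lay above SERPING1 (16.9 RPKM at most), and in Leo1_01 it lay below it again (29.2 to 32.1 against 36.4 to 43.2 RPKM). The ranges of C1R and C1S overlapped in both ΔLEO1 groups, although C1R was above C1S within every library.

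Changes between groups depend on what is held constant, and 2 scales are given. On the ERCC scale, counts are given per 1000000 ERCC counts of the library (the ERCC total times its TMM factor), which follows RNA relative to the spike-in. On the TMM scale, libraries are set so that most genes do not change. In the change of the median gene the 2 scales differed mainly for serum, while the number of genes called differed for genotype too. The median gene changed by -0.97 (log2) in WT cells and by -1.05 in ΔLEO1 cells after serum withdrawal on the ERCC scale, and by 0.35 and 0.27 between ΔLEO1 and WT cells in 10% and 0.1% serum. Genes were called at a Benjamini-Hochberg adjusted p under 0.05 in edgeR's quasi-likelihood test. On the ERCC scale this test used a spread shared between genes and not that of each gene. For serum in WT cells the SE was 0.456 for C1R, 0.475 for CD55 and 0.479 for C3. On the TMM scale it was 0.287, 0.112 and 0.756. The p-values on the ERCC scale can thus be too small for a variable gene and too large for a steady one. In bulk RNA, fewer expressing cells and less RNA per cell cannot be told apart.

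The initiating proteases C1R and C1S lie side by side on chromosome 12 (GRCh38; C1R at chr12:7080199-7092607 on the minus strand, C1S at chr12:6988259-7071032 on the plus strand). C1R was called lower in ΔLEO1 than in WT cells in 10% serum on both scales, and C1S in both sera on the TMM scale. C1R had 73593, 61464 and 30534 ERCC-scaled counts in WT_10 and 28394, 22982 and 11379 in Leo1_10. In 0.1% serum C1R had 61629, 96639.7 and 43628 in WT and 33485, 20698 and 30193 in ΔLEO1 cells. The ranges of the genotypes did not overlap in either serum. The log2 fold change of C1R was -1.40 (SE 0.46, adjusted p = 0.0348, edgeR) in 10% serum and -1.26 (SE 0.46, adjusted p = 0.0859, edgeR) in 0.1% serum, so the drop was called in 10% serum and missed the threshold in 0.1% serum. The call in 10% serum was lost in 6 of the 12 fits that leave out a library (without WT_10_1, WT_10_2, Leo1_10_5, Leo1_10_6, WT_01_7 or Leo1_01_10), with a highest adjusted p of 0.328 (edgeR). On the TMM scale it was called in both (-1.74 and -1.27, adjusted p = 0.000620 and 0.00557, edgeR).

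C1S followed C1R. In CPM, C1S had 345, 354 and 230.5 in WT_10 against 110.3, 127 and 56.5 in Leo1_10, and 745, 855 and 569 in WT_01 against 356, 402 and 213 in Leo1_01. All ΔLEO1 libraries were below the WT libraries of the same serum. On the ERCC scale the log2 fold changes were -1.34 (SE 0.47, adjusted p = 0.0538, edgeR) and -1.10 (SE 0.47, adjusted p = 0.190, edgeR) and neither was called. On the TMM scale both were (-1.67 and -1.13, adjusted p = 0.00151 and 0.0164, edgeR). The number of C1R reads per C1S read, a quantity that no scaling changes, was 1.55 to 2.06 in the 12 libraries. Its group means were 1.75 ± 0.137 in WT_10, 1.90 ± 0.146 in WT_01, 1.70 ± 0.187 in Leo1_10 and 1.69 ± 0.113 in Leo1_01 (SD, n = 3). No comparison of the ratio passed an exact two-sided permutation test (p = 0.2 to 1.0), for which 0.1 is the smallest p possible with 3 libraries against 3. Over the 12 libraries the log2 CPM of the pair had a Pearson r of 0.995. As for serum, C1R ranged from 440 to 585 CPM in WT_10 and from 1170 to 1602 CPM in WT_01, but its ERCC-scaled ranges overlapped.

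C1R has annotated starts at 2 places in the RefSeq promoter table (GRCh38.p14), which held windows for 6 of the 9 members. Each window runs from 250 bases before to 50 after a start. Both are shown since C1R was the most abundant member, with matches to motifs in capitals. The motifs searched on both strands were the STAT element TTCNNNGAA, the IRF element (GAAA, any 2 bases, GAAA), the C/EBP element TTGCNNAA, the NF-kB elements GGAATTTCC and (GGGA, any base, TTTCC), and the TATA box TATAAA. They are found in 7.66%, 3.57%, 10.5%, 0.461%, 0.558% and 11.5% of 35116 windows, in that order. The capitals do not overlap each other.
C1R, chr12:7091844-7092143, minus strand: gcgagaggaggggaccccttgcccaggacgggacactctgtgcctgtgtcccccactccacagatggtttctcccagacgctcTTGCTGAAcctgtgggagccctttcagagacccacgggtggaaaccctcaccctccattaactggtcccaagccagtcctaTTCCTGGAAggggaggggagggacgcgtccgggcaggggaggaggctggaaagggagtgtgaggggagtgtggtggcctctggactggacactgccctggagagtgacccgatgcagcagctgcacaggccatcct
C1R, chr12:7092396-7092695, minus strand: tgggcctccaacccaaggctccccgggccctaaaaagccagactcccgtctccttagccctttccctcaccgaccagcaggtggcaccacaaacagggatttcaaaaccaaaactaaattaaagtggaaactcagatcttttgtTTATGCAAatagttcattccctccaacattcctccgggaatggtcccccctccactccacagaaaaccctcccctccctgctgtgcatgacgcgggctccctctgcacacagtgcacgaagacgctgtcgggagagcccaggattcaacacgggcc
The first of these windows held a STAT element at position -86 and a C/EBP element at position -167 from the start, and the other a C/EBP element on the opposite strand at -106. A match is a description of the letters and not evidence of a bound factor.

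**Figure D1:**
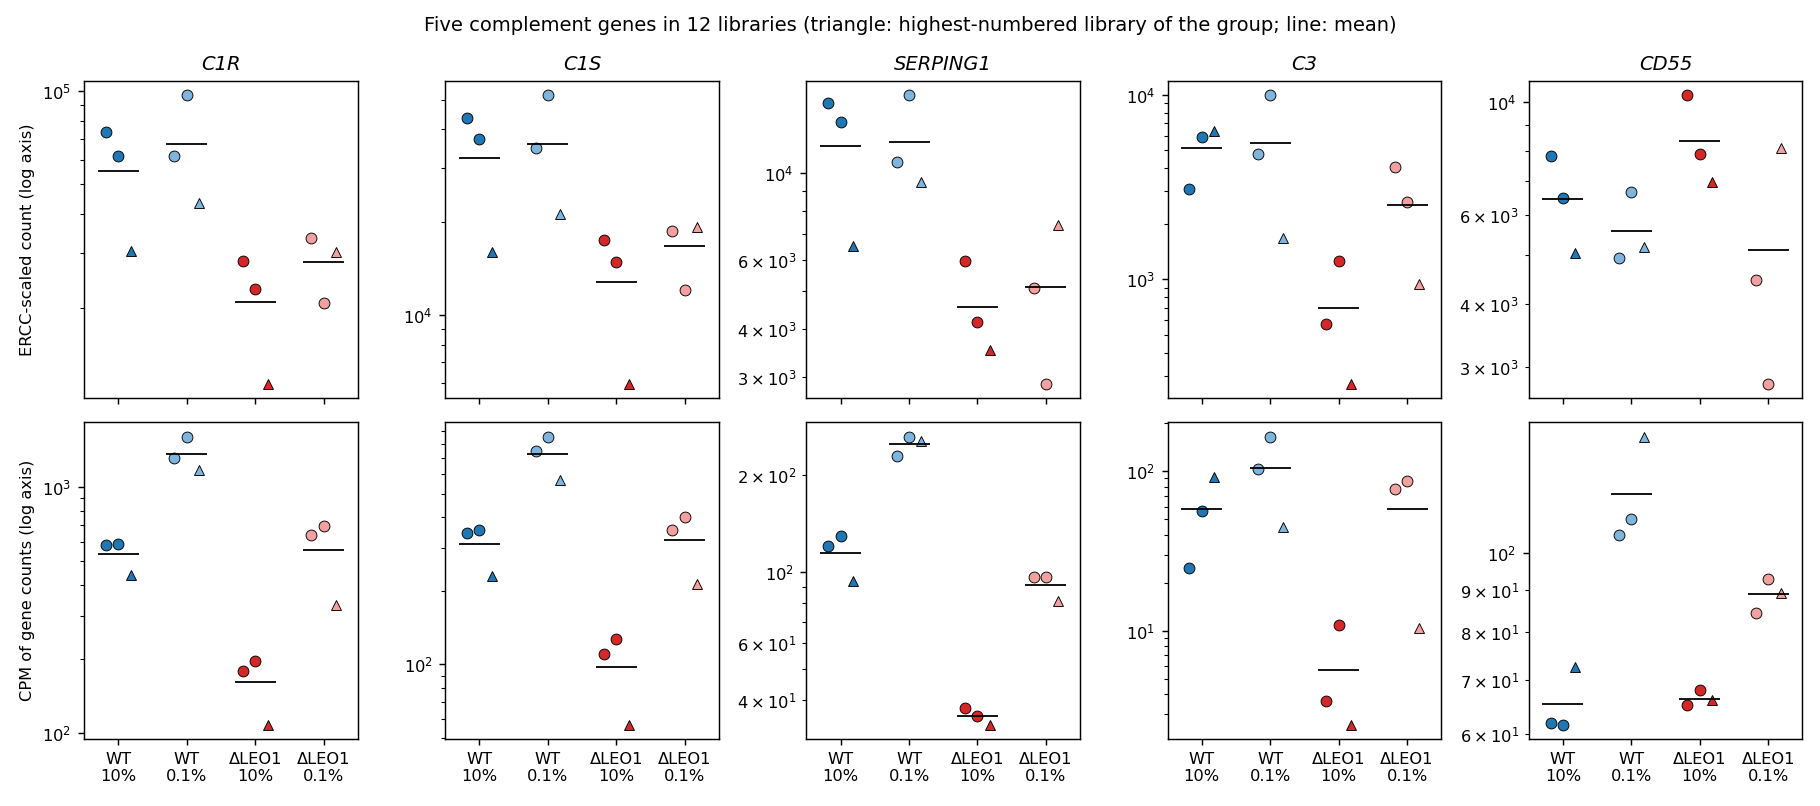
Values of C1R, C1S, SERPING1, C3 and CD55 in each of the 12 libraries, as ERCC-scaled counts in the upper row and as CPM in the lower row, both on log axes. Points are libraries, triangles the highest-numbered library of a group and lines the mean of 3. In the lower row C1R, C1S and SERPING1 lie lower in ΔLEO1 than in WT cells of the same serum without overlap, and higher in 0.1% than in 10% serum.

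SERPING1, the inhibitor of C1r and C1s (chr11:57597387-57614853, plus strand), lay below the WT libraries in every ΔLEO1 library of the same serum. It had 120.5, 129 and 93.8 CPM in WT_10 and 37.7, 35.8 and 33.5 CPM in Leo1_10. In 0.1% serum it had 228, 263 and 255 CPM in WT and 96.4, 96.4 and 81.1 CPM in ΔLEO1 cells. The groups did not overlap in CPM, nor on the ERCC scale, and the spread within groups was small in CPM. On the ERCC scale the log2 fold changes of -1.37 (adjusted p = 0.0549, edgeR) and -1.23 (adjusted p = 0.122, edgeR), in 10% and 0.1% serum, missed the threshold. On the TMM scale SERPING1 fell by 1.69 (SE 0.13, adjusted p = 2.26e-06, edgeR) in 10% serum and by 1.42 (SE 0.13, adjusted p = 1.18e-05, edgeR) in 0.1% serum. After serum withdrawal the TMM scale gave a rise of 1.04 in WT (adjusted p = 0.000192, edgeR) and of 1.30 in ΔLEO1 cells (adjusted p = 6.06e-05, edgeR). On the ERCC scale those values were 0.03 and 0.17, with 95% intervals of -0.89 to 0.96 and -0.76 to 1.09. The number of SERPING1 reads per read of C1R and C1S together was 0.136 ± 0.00537 in WT_10, 0.121 ± 0.0218 in WT_01, 0.148 ± 0.0491 in Leo1_10 and 0.111 ± 0.0327 in Leo1_01 (SD, n = 3). The differences between those means are within the spread between libraries, and the highest-numbered library had the highest ratio in all 4 groups.

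C3, the protein on which the pathways converge (chr19:6677704-6730562, minus strand), was the most variable of the abundant members. It had 3105, 5921 and 6376 ERCC-scaled counts in WT_10 and 571, 1258 and 271 in Leo1_10. In 0.1% serum it had 4800, 9927 and 1671 in WT and 4068, 2615 and 938 in ΔLEO1 cells. The genotypes were apart in 10% serum and overlapped in 0.1% serum. The log2 fold change in ΔLEO1 against WT cells was -2.87 (SE 0.52, adjusted p = 1.11e-06, edgeR) in 10% serum and -1.10 (SE 0.48, adjusted p = 0.223, edgeR) in 0.1% serum. In ΔLEO1 cells C3 was called higher in 0.1% than in 10% serum on both scales, by 1.86 on the ERCC scale (SE 0.50, adjusted p = 0.00422, edgeR) and by 3.33 on the TMM scale (SE 0.84, adjusted p = 0.0133, edgeR), although the ERCC-scaled and CPM ranges of the 2 groups overlapped. In WT cells the ERCC value was 0.09 (95% interval -0.85 to 1.03). The difference between those serum responses was 1.77 (SE 0.68, unadjusted p = 0.00974, adjusted p = 1.00, edgeR) and was not called.

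In 3 of the 4 groups C3 differed between like libraries more than nearly all other genes. Between the 2 lowest-numbered libraries, C3 differed by 1.19 in WT_10, 1.58 in Leo1_10, 0.68 in WT_01 and 0.18 in Leo1_01 (log2 ratio). These were at percentiles 99.99, 99.98, 99.9 and 75.9 of the tested genes with 10 CPM or more. In Leo1_01 C3 had 2686 and 2840 counts in the low-numbered libraries and 365 in the remaining one. WT_10_3, the library with the most C3 reads of its group (3599 against 898 and 2208), also held 4517 reads of IL6 and 2459 of IL1B, against 97 and 149 and against 110 and 187 in the others. The part of these cytokines, which induce C3 in many cells, was not tested. The ERCC fit gave C3 a smaller SE than the TMM fit (0.48 to 0.52 against 0.76 to 0.84), so its p-values on the ERCC scale may be too small. The call between serum conditions in ΔLEO1 cells was lost without Leo1_10_4 or Leo1_01_10 (lowest value over the 12 fits that leave out a library, 1.34, and highest adjusted p = 0.140, edgeR).

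CFI, which encodes the protease factor I (chr4:109740694-109802179, minus strand), was almost absent from ΔLEO1 cells. It had 74, 96 and 52 raw counts in WT_10 and 82, 63 and 60 in WT_01. In ΔLEO1 cells it had 5, 7 and 0 in 10% serum and 3, 3 and 3 in 0.1% serum. No ΔLEO1 library reached the lowest WT library. CFI passed the filter through its 6 WT libraries alone (1.33 to 2.45 CPM, against at most 0.154 CPM in ΔLEO1 libraries). Its direction between genotypes was thus set by that filter, and the p-values and calls below are not independent support for the drop. CFI fell by 4.04 on the log2 scale in 10% serum (SE 0.69, adjusted p = 2.77e-07, edgeR) and by 4.52 in 0.1% serum (SE 0.72, adjusted p = 2.93e-08, edgeR), and both stayed called when any library was left out. From summed counts of 205 and 9 in 0.1% serum, CFI was 23.7-fold higher in WT than in ΔLEO1 cells on the ERCC scale, with a 95% Clopper-Pearson interval of 12.2 to 52.6, which covers counting error only. Serum changed CFI by -0.89 in WT and -1.37 in ΔLEO1 cells, and by 0.10 and -0.15 on the TMM scale, none of them called. CFI shares 32.0% of its exon bases with a read-through gene on the same strand (AC126283.2) that had no counts in the table. Reads in shared bases may have been left uncounted and the level of CFI may be too low. Its promoter window, shown because CFI had the largest drop of the tested members, held none of the motifs.
CFI, chr4:109801950-109802249, minus strand: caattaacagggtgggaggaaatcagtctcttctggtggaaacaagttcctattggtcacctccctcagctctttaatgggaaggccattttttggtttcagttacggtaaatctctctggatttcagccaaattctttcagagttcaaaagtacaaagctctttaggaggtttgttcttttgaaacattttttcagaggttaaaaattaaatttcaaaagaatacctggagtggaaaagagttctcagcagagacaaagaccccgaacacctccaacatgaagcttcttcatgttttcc

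The alternative pathway genes CFB and CFD had few reads, and fewer in ΔLEO1 cells. CFB (chr6:31945650-31952084, plus strand) had 6, 12 and 14 raw counts in WT_10, 22, 14 and 5 in WT_01, 2, 6 and 0 in Leo1_10 and none in any of the 3 Leo1_01 libraries. A count of 0 allows up to 3 counts per library. The WT_01 mean of CFB was 4.55-fold that floor in Leo1_01 on the ERCC scale and 5.07-fold in CPM. These values take the WT_01 mean as exact, and WT_01_9 had only 5 counts, so they are not strict lower bounds. CFD (chr19:859643-863630, plus strand) had 5, 14 and 17 counts in WT_10 and 7, 4 and 11 in WT_01, against 2, 0 and 1 in Leo1_10 and 2, 0 and 0 in Leo1_01. Its summed counts gave a ratio of WT to ΔLEO1 cells of 10.3 (95% interval 3.26 to 52.4) in 10% serum and of 11.4 (2.81 to 100.4) in 0.1% serum on the ERCC scale. The genotypes did not overlap for CFB or CFD on either scale. With no filter on low counts, over 32285 genes, CFD was called lower in ΔLEO1 cells in 10% serum (adjusted p = 0.0264, edgeR) but not in 0.1% serum (adjusted p = 0.0542, edgeR), and CFB in 0.1% serum (adjusted p = 9.65e-06, edgeR) but not in 10% serum (adjusted p = 0.336, edgeR). With edgeR's looser filter of 15722 genes, which CFB and CFD pass through WT libraries alone, CFD was called in both sera (adjusted p = 0.0104 and 0.0241, edgeR). Calls made after that filter are not independent support for a drop. CFB shares 45.5% of its exon bases with other genes, mostly with a read-through gene (AL645922.1) without counts, so part of its reads may be missing.

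CFB is known as a gene induced by interferon, and its promoter window is shown for the motif matches in it. It contained a STAT element at -92, an IRF element on the opposite strand at -140 and a TATA box at -30.
CFB, chr6:31945845-31946144, plus strand: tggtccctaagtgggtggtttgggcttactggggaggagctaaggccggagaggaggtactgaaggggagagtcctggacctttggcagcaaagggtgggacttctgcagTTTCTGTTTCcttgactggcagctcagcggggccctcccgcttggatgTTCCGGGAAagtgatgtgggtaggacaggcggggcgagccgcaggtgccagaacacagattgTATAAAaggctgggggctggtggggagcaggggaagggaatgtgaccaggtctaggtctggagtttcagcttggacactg
C7 (chr5:40909252-40982939, plus strand), a component of the membrane attack complex, had 0 to 5 counts in 11 libraries and 10 in Leo1_01_12. Its summed counts were 11 in Leo1_01 and 1 in Leo1_10, a ratio of 13.8 in CPM (95% interval 2.003 to 593) and of 5.44 on the ERCC scale (0.790 to 234), of which Leo1_01_12 alone gave 10 counts. WT_10 had 7 and Leo1_10 had 1, a ratio of 7.83 in CPM (1.01 to 353) and of 6.02 on the ERCC scale (0.774 to 271). With no filter on low counts C7 was not called in any of the 4 group comparisons (adjusted p = 0.194 to 0.777, edgeR).

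**Figure D2:**
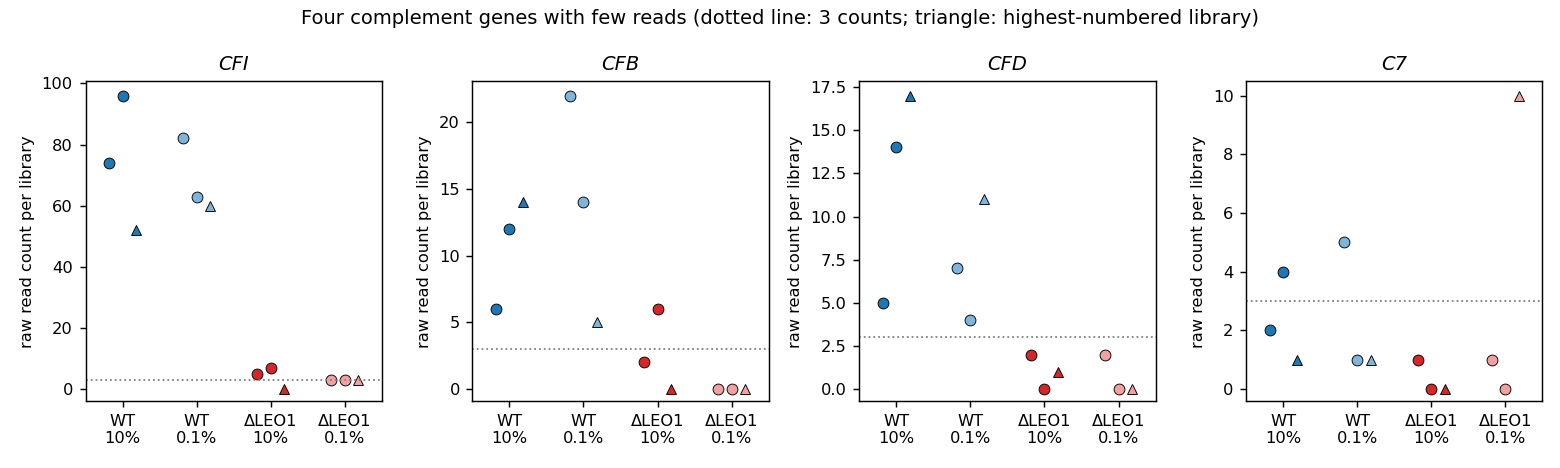
Raw read counts of CFI, CFB, CFD and C7 in each of the 12 libraries, by group. The dotted line marks 3 counts and triangles the highest-numbered library of each group. CFI has 52 to 96 counts in WT and 0 to 7 in ΔLEO1 libraries, and CFB has none in Leo1_01.

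CD55, the membrane-bound regulator (chr1:207321376-207386804, plus strand), had the smallest genotype differences of the 6 tested members on both scales. It had 62.0, 61.6 and 72.4 CPM in WT_10 and 65.1, 67.9 and 66.0 CPM in Leo1_10. In 0.1% serum it had 105, 110.1 and 139 CPM in WT and 84.5, 92.9 and 89.4 CPM in ΔLEO1 cells. The genotypes overlapped in 10% serum, and in 0.1% serum all ΔLEO1 libraries were below the WT libraries in CPM. The log2 fold change between genotypes in 10% serum was 0.38 on the ERCC scale (95% interval -0.55 to 1.31) and 0.01 on the TMM scale (-0.23 to 0.26). In 0.1% serum it was -0.13 on the ERCC scale (-1.06 to 0.81) and -0.39 on the TMM scale (adjusted p = 0.0185, edgeR). The direction of the serum response of CD55 turned with the scale, from -0.21 to 0.77 in WT and from -0.71 to 0.36 in ΔLEO1 cells, and it was called only on the TMM scale (adjusted p = 0.000490 and 0.0314, edgeR). The number of CD55 reads per SERPING1 read was 0.419 to 0.772 in the 6 WT libraries, 1.73 to 1.97 in Leo1_10 and 0.877, 0.963 and 1.102 in Leo1_01.

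**Figure D3:**
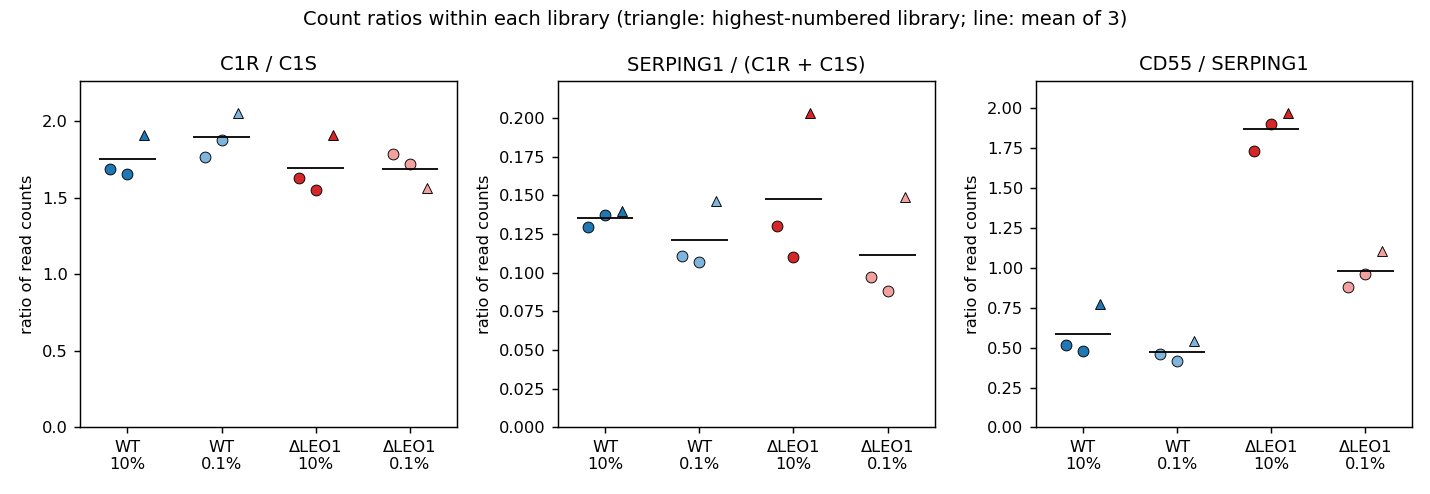
Ratios of read counts within each of the 12 libraries, which do not depend on scaling, for C1R per C1S, SERPING1 per C1R and C1S together, and CD55 per SERPING1. Triangles are the highest-numbered library of each group and lines the mean of 3. The CD55 to SERPING1 ratio is 1.73 to 1.97 in Leo1_10 and 0.772 or less in all WT libraries.

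Every member called between genotypes was lower in ΔLEO1 cells, whichever scale gave the call. Which members were called depended on the scale, both between genotypes and between sera. CFI was tested only because of its WT libraries, so the members are counted here without it, over the 5 that were above 1 CPM in every library (C1R, C1S, C3, SERPING1 and CD55). In 10% serum 2 of the 5 (C1R and C3) were called lower in ΔLEO1 cells on the ERCC scale, where 4.20% of all tested genes were called lower, and 4 were on the TMM scale, where 21.4% were. In 0.1% serum none of the 5 was called on the ERCC scale, where 3.41% of all genes were called lower. This held for edgeR's quasi-likelihood test, its likelihood ratio test and DESeq2. In the first of these, 4 had an unadjusted p under 0.05, as had 1712 of the 13236 tested genes, in either direction. On the TMM scale 4 were called lower in 0.1% serum (17.3% of all genes), with CD55 in place of C3. Of the 5, 3 had ranges below those of WT without overlap on the ERCC scale in each serum (6.94% and 4.83% of all tested genes), and 4 had in CPM (29.6% and 21.8%). The median log2 fold change of the 5 was -1.37 in 10% and -1.10 in 0.1% serum on the ERCC scale, beside 0.35 and 0.27 over all tested genes. In the pairs of low-numbered libraries alone, 4 of the 5 (C1R, C1S, C3 and SERPING1) were called lower in each serum on the ERCC scale, where 6.23% and 12.4% of all tested genes were. The libraries left out there were those that stood apart in these same data. A smaller spread and more calls can follow from that choice, so this is not independent support. Both genotype comparisons rest on different libraries, while each shares its libraries with the serum comparisons.

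After serum withdrawal none of the 6 members was called in WT cells on the ERCC scale. The same was found with edgeR's quasi-likelihood test, its likelihood ratio test and DESeq2. None had an unadjusted p under 0.05 in the first of these, while 6653 of the 13236 tested genes had. Of all tested genes 27.0% were called lower and 0.831% higher. In ΔLEO1 cells C3 was the member called, higher, where 0.793% of all genes were higher and 36.4% lower. On the TMM scale 4 members were called higher in WT cells (C1R, C1S, SERPING1 and CD55) and 5 in ΔLEO1 cells (these and C3), where 15.5% of all genes were called higher in each. In CPM, 4 members were above 10% serum without overlap in each genotype (C1R, C1S, SERPING1 and CD55), as were 31.5% of all tested genes in WT and 27.3% in ΔLEO1 cells. In the ERCC fit, the serum responses of C1R, C1S, C3 and SERPING1 were at percentiles 95.3 to 96.9 of all tested genes in WT and 96.0 to 99.4 in ΔLEO1 cells, that of CD55 at 92.5 and 77.8 and that of CFI at 57.3 and 19.5. No member was called for the interaction of genotype and serum on either scale, in which 0.174% of all genes were called on the ERCC scale and 2.0% on the TMM scale. For the interaction, C3 had an unadjusted p under 0.05 on the ERCC scale, as had 280 of the 13236 tested genes. On the TMM scale C3 and CD55 had, as had 1837 of the 13236.

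**Figure D4:**
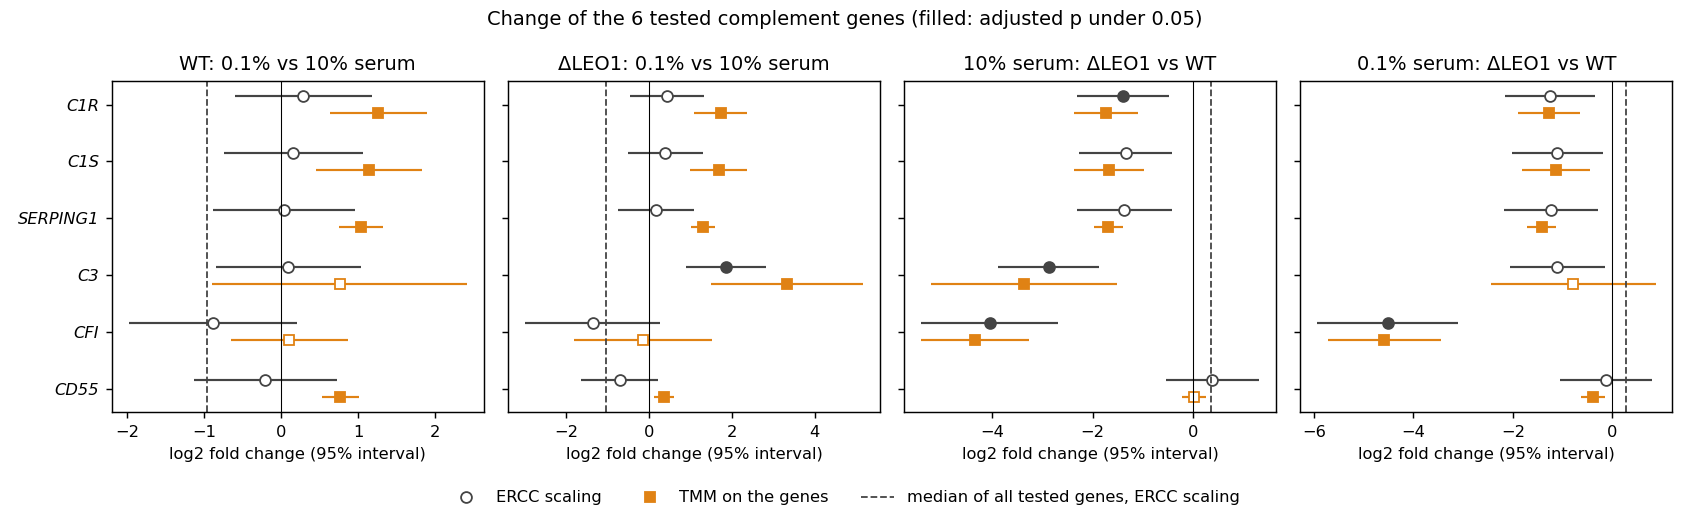
Log2 fold changes of the 6 tested members with 95% intervals in the 4 comparisons, on the ERCC scale (circles) and on the TMM scale (squares), filled where the adjusted p was under 0.05. The dashed line is the median of all 13236 tested genes on the ERCC scale, which lies at -0.97 and -1.05 for serum and at 0.35 and 0.27 for genotype. CFI lies furthest to the left in both genotype panels, and CD55 close to 0.

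Other complement genes were counted by role. Of 16 further genes of initiation 4 were tested, and the C1q chains had at most 1 count in a library. MASP1, a protease of the lectin pathway, was abundant (11182 to 37843 counts). It was called lower after serum withdrawal in ΔLEO1 cells on the ERCC scale (-1.19, adjusted p = 0.0378, edgeR) but not on the TMM scale (-0.22, adjusted p = 0.551, edgeR). C1RL, a relative of C1R that lies next to it and shares 11.4% of the exon bases of C1R, was called lower in ΔLEO1 cells on the TMM scale only (-1.22 and -0.88, adjusted p = 3.42e-05 and 0.000476, edgeR, in 10% and 0.1% serum). In 10% serum 1 gene of this list was called higher in ΔLEO1 cells on the ERCC scale, the collectin gene COLEC10 (1.87, adjusted p = 0.00860, edgeR), and none was called lower. On the TMM scale 2 of the 4 tested genes of the list were called lower and 1 higher in each serum. Of all tested genes 21.4% and 17.3% were called lower there in 10% and 0.1% serum. MASP1 was not called between genotypes on the ERCC scale (-0.16 and -0.46). COLEC10 was also called lower after serum withdrawal in ΔLEO1 cells (adjusted p = 0.0274, edgeR), and C4B in WT cells (adjusted p = 0.0145, edgeR), both at low counts and named after their values were seen.

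Among the further regulators, CSMD1, which encodes a large membrane protein with complement control domains, had 208 to 694 counts in WT and 0 to 3 in ΔLEO1 libraries (adjusted p = 1.18e-21 and 3.39e-21, edgeR, in 10% and 0.1% serum). Like CFI, CSMD1 passed the filter through its WT libraries alone, with means of 0.0222 and 0.0687 CPM in Leo1_10 and Leo1_01. The p-values of CSMD1 are therefore not independent support for a drop. CD46, a membrane cofactor of factor I, did not differ beyond the threshold between genotypes on either scale (0.53 and 0.21 on the ERCC scale) and was called lower after serum withdrawal in ΔLEO1 cells (-1.44, adjusted p = 0.0215, edgeR), with -0.40 on the TMM scale (adjusted p = 0.124, edgeR). VTN, at low counts, was called higher in ΔLEO1 cells in 10% and 0.1% serum (2.15 and 3.26, adjusted p = 0.00266 and 3.33e-05, edgeR). Of all tested genes 3.81% and 3.49% were called higher there. VTN passed the filter mostly through ΔLEO1 libraries and was named after its values were seen. Its means were 4.51 and 1.25 CPM in Leo1_10 and Leo1_01, and 1.37 and 0.164 CPM in WT_10 and WT_01. Of 6 further terminal components only C5 was tested, and it was called lower in ΔLEO1 cells in 10% serum (-2.62, adjusted p = 0.000114, edgeR) and not in 0.1% serum (-1.24, adjusted p = 0.214, edgeR), likewise named after its values were seen. Of 10 receptors only C1QBP, a mitochondrial protein that binds C1q, was tested, and it was called lower after serum withdrawal in ΔLEO1 cells on the ERCC scale (-1.46, adjusted p = 0.0210, edgeR) but not on the TMM scale (-0.30). Between genotypes C1QBP went the other way from the members that were called. It was called higher in ΔLEO1 cells in 10% and 0.1% serum on the TMM scale (0.76 and 0.43), but not on the ERCC scale (1.12 and 0.58).

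Among the cytokine genes known to induce complement genes, TNF was called higher in ΔLEO1 cells in both sera on the ERCC scale (4.90 and 7.71, adjusted p = 4.09e-09 and 6.72e-10, edgeR). It had 0 to 5 counts in WT and 18 to 61 in ΔLEO1 libraries, and passed the filter through ΔLEO1 libraries alone. The p-values of TNF are therefore not independent support for a rise. No WT_01 library had a read of TNF, so the value of 7.71 is not a measured ratio. IL6 and IL1B were called lower in ΔLEO1 cells in 10% serum on the ERCC scale (-3.93 and -1.58, adjusted p = 6.77e-10 and 0.0349, edgeR). WT_10_3 held most of the WT_10 reads of both genes, as given for C3. The other WT_10 libraries had 97 and 149 counts of IL6 and 110 and 187 of IL1B, against 38 to 114 and 120 to 277 in Leo1_10. On the TMM scale IL1B was not called (adjusted p = 0.0695, edgeR). The part of any of these genes in the levels of the members was not tested.

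The genes whose levels were most alike were sought by Pearson's r of log2 CPM over the 12 libraries, among 8874 tested genes with a mean of 10 CPM or more. The libraries share genotype, serum and depth, so these values describe the pattern. For C1R they were PDGFRL (0.985), PLEKHA4 (0.985) and SCARA3 (0.983), and the same 3 genes were nearest to C1S. For SERPING1 they were OLFML3 (0.995), TCTN1 (0.991) and PCIF1 (0.991), for C3 FAM20C (0.960), FGFR1 (0.958) and B4GALT5 (0.949), for CFI PRMT6 (0.985), NRIP3 (0.981) and ALG8 (0.981), and for CD55 RAB9A (0.968), CD58 (0.954) and RNASET2 (0.952). Within the set, SERPING1 had an r of 0.968 with C1R and 0.952 with C1S, C3 had 0.894 with C1R, and CFI and CD55 had the lowest value, 0.27.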

How the data were processed

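BJ-5ta cells were grouped by the sample titles as WT_10, WT_01, Leo1_10 and Leo1_01, with 3 libraries each. The authors prepared stranded poly(A) libraries with ERCC transcripts, aligned the paired 58-base reads with STAR (2.7.10a in the submitters' processing notes) to the GRCh38 genome of Ensembl and counted reads in exons with featureCounts 1.5.1. The deposited values are raw counts per gene and per ERCC transcript, and no normalization had been applied. The annotation release and the strand setting are not given in the sources used here, and positions are from GENCODE v29.

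The 13236 genes above 1 CPM in at least 3 libraries were tested in R 4.3.3 with edgeR 4.0.16 (glmQLFit and glmQLFTest, two-sided), on all 12 libraries with 4 groups. The library size was the ERCC total times the TMM factor of the ERCC transcripts. The study names edgeR and this scaling but not the test. Alternatives were the likelihood ratio test, DESeq2 1.42.0, TMM or DESeq2 size factors on the genes, ERCC totals, other filters, fewer libraries and each library left out. On simulated data for the serum response in wild-type cells (13236 genes), 98 of 100 genes changed by 3 (log2) and 28 of 100 changed by 1.5 were recovered, and 0 of 13036 unchanged genes were called. Ratios were compared by exact permutation tests (scipy 1.17.1). Genes named by rule were the 9 members, other complement genes called in a group comparison with a mean of 10 CPM or more in a group (at most 8), the 3 genes most correlated with each tested member, and LEO1. Outside this rule C1RL, COLEC10, C4B, C5, VTN, TNF, IL6, IL1B and markers of cell types were named too. Some items are not reported here. The members and gene lists were chosen with earlier results of these data known.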

Additional observations from a re-analysis of the deposited data

How the results depend on the processing

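The ERCC share of a library depends on the amount of total RNA that was added, which is not known per library, and the TMM scale cannot show a change that most genes share. On the ERCC scale the SE of the members was 0.46 to 0.84 in the group comparisons, so changes under about 1 (log2) could not pass the threshold there. Larger changes failed too between genotypes, such as -1.37 for SERPING1 in 10% serum and -1.26 for C1R in 0.1% serum. No paired analysis was possible because no library number occurs in more than 1 group. The count ratio of C1R to C1S kept its value with 1 count added to both genes.

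With TMM or DESeq2 size factors on the genes, the members called numbered 4 (serum, WT cells), 5 (serum, ΔLEO1 cells), 5 (genotype, 10% serum) and 5 (genotype, 0.1% serum), against 0, 1, 3 and 1. CFI then gave 0.10 and 0.11 for serum in WT cells, and CD55 gave 0.77 and 0.77 for serum in WT cells and 0.36 and 0.36 in ΔLEO1 cells. With no filter 2 members were called for serum in ΔLEO1 cells and 2 for genotype in 0.1% serum. With edgeR's filterByExpr 2, 6 and 3 were called for serum in ΔLEO1 cells and for genotype in 10% and 0.1% serum, CFB and CFD being tested there. CFB was among those called for serum in ΔLEO1 cells in both settings, and was lower (-5.10). It had 8 summed counts in Leo1_10 and 0 in Leo1_01, so these calls do not share a direction with the rise of C3. The likelihood ratio test called 5 for genotype in 10% serum. With only the groups compared, 0 were called for serum in ΔLEO1 cells and 5 for genotype in 10% serum. With just the 2 libraries of lowest number per group, 1 was called for serum in WT cells, 3 for serum in ΔLEO1 cells and 5 for each genotype comparison. Those libraries were kept because they were alike in these data. SERPING1 then gave -0.11 and -0.35 for serum in WT and ΔLEO1 cells, C1S gave -0.067 for serum in ΔLEO1 cells, and the interaction was -0.15 for C1R, -0.17 for C1S and -0.23 for SERPING1. With those libraries summed, 0 were called for serum in ΔLEO1 cells, C3 gave -0.39 for serum in WT cells and CD55 gave 0.11 for genotype in 0.1% serum. For each setting that counts other genes or libraries the cause was not tested. The counts of members called in this section include CFI, and CFB and CFD where tested, which had almost all their reads in WT libraries. They stand without the share of all genes called in each setting, and describe only how the calls depend on the processing.

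With each of the 12 libraries left out, the members called ranged from 0 to 0 and from 0 to 2 for serum in WT and ΔLEO1 cells, from 2 to 5 and from 1 to 3 for genotype in 10% and 0.1% serum, and from 0 to 1 for the interaction (C3, without Leo1_01_12). For serum in WT cells the log2 fold changes ranged from -0.069 to 0.53 for C1R, -0.20 to 0.42 for C1S, -0.67 to 0.52 for C3 and -0.26 to 0.25 for SERPING1, and in ΔLEO1 cells from -0.19 to 0.45 for SERPING1. CD55 ranged from -0.63 to 0.17 for genotype in 0.1% serum. The interaction ranged from -0.14 to 0.50 for C1R, -0.090 to 0.59 for C1S, -1.12 to 0.028 for CFI and -0.22 to 0.42 for SERPING1. The log2 difference of the C1R to C1S ratio ranged from 0.059 to 0.18 and from -0.062 to 0.086 for serum in WT and ΔLEO1 cells, and from -0.14 to 0.015 and from -0.22 to -0.11 for genotype in 10% and 0.1% serum.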
